A study of Mus musculus with 6 samples.

Results

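The 10 genes described here encode receptors of the immunoglobulin family that T cells use to raise or restrain activation: *Icos*, *Cd28* and *Cd226* on the costimulatory side, *Ctla4*, *Pdcd1*, *Btla*, *Tigit*, *Lag3* and *Havcr2* on the inhibitory side, and *Cd200*, which signals to myeloid cells. They were chosen by name, and all 10 were found among the 53379 genes of the count files. RNA was measured in follicular helper T (Tfh) cells of 3 *Prdm1*-CKO and 3 CTL female mice aged 6 to 8 weeks. *Prdm1*-CKO mice carried *Prdm1* fl/fl with CD11c-Cre, so that BLIMP-1 was deleted in dendritic cells with high CD11c and not, by design, in T cells, while CTL mice had either the floxed alleles without Cre or CD11c-Cre with intact *Prdm1*. All mice received 100 µg NP-CGG in complete Freund's adjuvant, and spleens were taken on day 7. The labels do not say which of the control genotypes each CTL mouse had, and they name the other group KO in titles and Blimp1 KD in the genotype field. Live cells positive for TCRβ, CD4, CXCR5 and PD1 were sorted, with no step against FOXP3, so follicular regulatory cells could enter the gate, and PD1, the product of *Pdcd1*, was itself a sorting marker. Each mouse gave 1 Smart-seq2 library.

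CD28 and ICOS bind ligands on antigen-presenting cells and recruit phosphoinositide 3-kinase (PI3K), and ICOS is required for Tfh cells to form and persist. CTLA4 competes with CD28 for CD80 and CD86. PD1, BTLA and TIGIT carry immunoreceptor tyrosine-based inhibitory motifs (ITIM) in their cytoplasmic tails, and TIGIT competes with CD226 for CD155. The RNA-seq was a broad survey of Tfh cells from mice whose dendritic cells lack BLIMP-1, and the comparison here asks how the transcripts of these receptors stand in it.

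Stretches of coding sequence around a tail tyrosine are shown for the PI3K-binding motif and the ITIM named above. They were read on GRCm38 from GENCODE M21 transcripts, each lies inside a single exon, and capitals mark the codons of the motif. For the PI3K-binding motif the stretches lay in the last exon of 3 neighbouring genes on chromosome 1.
Icos, chr1:60995548-60995583, plus strand: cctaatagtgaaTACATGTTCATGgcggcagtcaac
Cd28, chr1:60769681-60769716, plus strand: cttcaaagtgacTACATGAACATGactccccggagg
Ctla4, chr1:60914634-60914669, plus strand: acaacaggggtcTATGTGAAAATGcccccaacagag
For the ITIM the stretches came from 3 inhibitory members.
Pdcd1, chr1:94039476-94039517, minus strand: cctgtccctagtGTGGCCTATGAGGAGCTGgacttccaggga
Btla, chr16:45250478-45250519, plus strand: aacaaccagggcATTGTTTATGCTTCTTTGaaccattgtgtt
Tigit, chr16:43649022-43649063, minus strand: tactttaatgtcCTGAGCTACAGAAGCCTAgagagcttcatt
The first PI3K codon stood 43 codons from the end of the coding sequence in *Icos*, 30 in *Cd28* and 23 in *Ctla4*. The ITIM began 66 codons from the end in *Pdcd1*, 35 in *Btla* and 16 in *Tigit*. Within the last 100 codons, the PI3K motif was present in 6.16% and the ITIM in 16.6% of 21396 coding genes, so a match alone is only a description.

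*Cd28* (chr1:60716800-60773359), *Ctla4* (chr1:60887000-60915832) and *Icos* (chr1:60977927-61000320) follow each other on the plus strand, 113.6 kb and 62.1 kb apart. *Pdcd1* lies on the same chromosome (chr1:94038305-94052553, minus strand). *Lag3* is at chr6:124904361-124911705, *Havcr2* at chr11:46454935-46481255 and *Cd200* at chr16:45382135-45409053. The exons of the 10 genes overlapped no other gene annotated in GENCODE M21. The paper names an older GENCODE release for its counts, and overlap in that release was not checked. Gene coordinates of *Btla*, *Tigit* and *Cd226* are not given because the annotation holds another version of these entries than the count files. The stretches shown for *Btla* and *Tigit* come from the annotation's version. So do the exon lengths of these genes, and their levels and ranks per length below carry that limit.

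Total counts were 7147601 to 16973392 per mouse, and each member had between 69 and 6695 counts in a mouse, far above the 3 counts (0.177 to 0.420 CPM) taken as the floor, which covers counting error only. CPM are counts scaled to library size with edgeR's TMM factors. CTL mouse 2 stood apart from the other mice, at 134.6 against -29.1 to -24 on a first principal component holding 56.4% of the variance. The 12 T and Tfh cell markers, *Cxcr5* and *Bcl6* among them, were detected in every mouse and summed to 3602 to 4568 CPM in CTL and 3615 to 3765 CPM in *Prdm1*-CKO mice. All 12 macrophage markers were also detected in every mouse and summed to 2302 to 4932 CPM and 3998 to 4854 CPM, with CTL mouse 2 the lowest. The 8 regulatory T cell (Treg) markers summed to 1086 to 1166 CPM and 960 to 1113 CPM, and the 10 B cell markers to 109 to 181 CPM and 154 to 242 CPM. For the 10 dendritic cell markers the sums were 523 to 692 CPM and 567 to 731 CPM. Most of that sum was *Ccr7* in every mouse, at 453, 368 and 407 CPM in CTL and 393, 349 and 429 CPM in *Prdm1*-CKO mice. The 10 CD8 and NK cell markers summed to 277 to 359 CPM and 235 to 283 CPM, and the 7 erythroid markers found in the files to 7.11 to 17.6 CPM and 12.1 to 47.4 CPM. The summed level of the 8 plasma cell markers did not overlap between groups. It was 485 to 740 CPM in CTL and 745 to 952 CPM in *Prdm1*-CKO mice, so the nearest mice stood at 740 and 745 CPM. *Jchain*, the largest part of this sum, overlapped, with 383, 254 and 382 CPM in CTL and 363, 549 and 636 CPM in *Prdm1*-CKO mice. How often the sum of other gene lists would be apart was not tested. Marker by marker, all *Prdm1*-CKO mice were above all CTL mice in 2 of 8 plasma cell and 3 of 10 B cell markers. The same held for 1 macrophage, 1 dendritic cell and 1 CD8 and NK cell marker, beside 4.56% of all genes tested. All were below in 3 of 10 CD8 and NK cell and 1 of 12 T and Tfh cell markers, beside 3.86%. No list had a marker at 0 in all mice. *Prdm1*, deleted in dendritic cells only, was at a mean of 28.8 CPM in CTL and 30.6 CPM in *Prdm1*-CKO Tfh cells (log2 fold change 0.09, adjusted p = 0.996, edgeR), so it does not check the labels in these cells.

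To compare levels between genes, counts were also divided by the length of each gene's merged exons (RPKM). *Tigit* and *Pdcd1* led in this scale. *Tigit* had 199 ± 24.5 RPKM in CTL and 186 ± 28.5 RPKM in *Prdm1*-CKO mice (SD, n = 3 each), which put it at rank 185 and rank 220 of the 14555 genes that passed the expression filter. *Pdcd1* had 144 ± 51.5 and 150 ± 29.2 RPKM, at ranks 265 and 278. *Tigit* was the first and *Pdcd1* the second of the 10 in each of the 6 mice, although their ranges overlapped within both groups.

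A middle tier held *Ctla4*, *Icos* and *Cd28* together with *Lag3*, *Btla* and *Cd200*. *Ctla4*, whose product removes CD80 and CD86 from antigen-presenting cells, had 83.3 ± 2.90 RPKM in CTL and 81.1 ± 4.18 RPKM in *Prdm1*-CKO mice, at ranks 539 and 600. *Icos* had 77.9 ± 14.4 and 78.2 ± 6.35 RPKM, at ranks 599 and 636. *Cd28* had 77.1 ± 5.50 and 59.8 ± 4.94 RPKM, at ranks 606 and 916, but its place beside *Icos* depended on the length used. With the longest coding transcript in place of the merged exons, *Cd28* was above *Icos* in both groups, at ranks 640 and 912 in CTL and 957 and 989 in *Prdm1*-CKO mice. *Lag3*, a receptor for MHC class II, had 61.2 ± 12.9 and 70.0 ± 27.5 RPKM, at ranks 838 and 749. *Btla*, the receptor for HVEM, had 52.1 ± 5.96 and 59.2 ± 4.85 RPKM, at ranks 1013 and 930. *Cd200*, the ligand of the inhibitory receptor CD200R on myeloid cells, had 46.7 ± 3.65 and 42.1 ± 3.52 RPKM, at ranks 1163 and 1393.

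*Cd226* and *Havcr2* were the lowest. *Cd226* had 18.3 ± 4.21 RPKM in CTL and 13.9 ± 2.22 RPKM in *Prdm1*-CKO mice, at ranks 3216 and 4094. *Havcr2*, which encodes TIM3, had 10.1 ± 6.38 and 13.8 ± 2.92 RPKM, at ranks 5163 and 4115, and its rank moved from 3479 in a *Prdm1*-CKO mouse to 9350 in CTL mouse 2. Of neighbours in the order, *Pdcd1* and *Ctla4* as well as *Cd200* and *Cd226* had separate ranges in both groups, and *Btla* and *Cd200* did so in *Prdm1*-CKO mice. With the longest coding transcript, *Cd200* was above *Btla* in CTL mice (ranks 1232 and 1539) and below it in *Prdm1*-CKO mice (ranks 1448 and 1384), so their order is not settled. All other neighbours overlapped, so each step in the order between *Ctla4*, *Icos*, *Cd28*, *Lag3* and *Btla* was within the spread between mice.

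**Figure D1:**
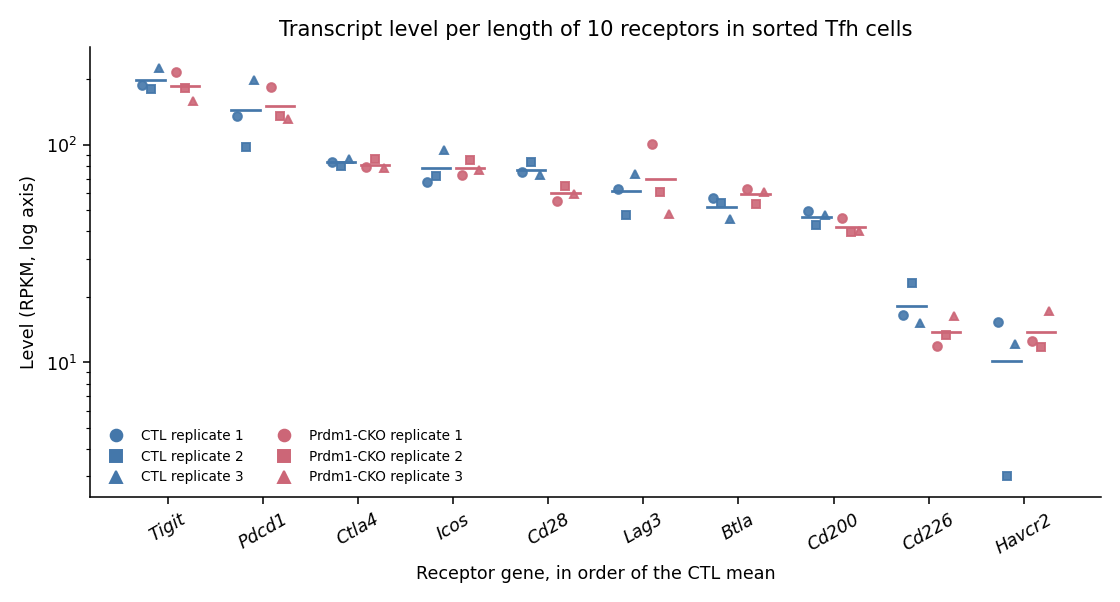
Level of each receptor in RPKM on a log axis, with a point per mouse and a line at each group mean, ordered by the CTL mean. *Tigit* and *Pdcd1* are on top at about 199 and 144 RPKM in CTL mice, and the low point of *Havcr2* at 3.00 RPKM is CTL mouse 2.

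Summed over the 6 inhibitory members, the level was 544, 462 and 643 RPKM in CTL mice and 656, 532 and 495 RPKM in *Prdm1*-CKO mice. The 3 costimulatory members summed to 159, 178 and 183 RPKM and to 140, 164 and 152 RPKM. The inhibitory sum was therefore 3.42, 2.59 and 3.52 times the costimulatory sum in CTL and 4.68, 3.25 and 3.25 times in *Prdm1*-CKO mice. These ranges overlapped.

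None of the 10 receptors passed the test for a change in *Prdm1*-CKO Tfh cells. In edgeR's quasi-likelihood test with Benjamini-Hochberg adjustment over all genes, the lowest adjusted p of a member was 0.996, and 0% of the 14555 genes tested were called. *Cd28* alone had an unadjusted p under 0.05, which makes 1 of 10 members, against 2.35% of all genes in either direction and 1.42% in the lower direction. Log2 fold changes were above 0 in 5 members and below 0 in 5, with a median of -0.02 beside 0.01 over all genes tested. With 3 mice in each group, the 95% intervals of 7 members lay between 0.63- and 1.59-fold. They reached down to 0.54-fold in *Cd226*, up to 1.81-fold in *Lag3* and from 0.61- to 3.03-fold in *Havcr2*, so changes of these sizes were not excluded. The mice are separate animals. In bulk RNA, fewer cells that carry a receptor and less of its RNA in each cell cannot be told apart.

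**Figure D2:**
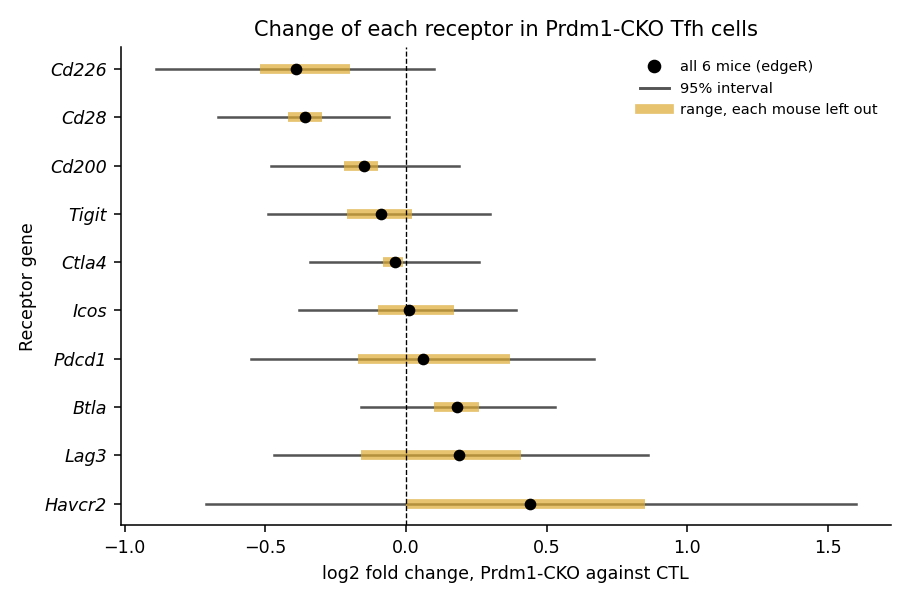
Log2 fold change of each receptor in *Prdm1*-CKO against CTL Tfh cells (point, edgeR, 3 mice each), with the 95% interval as a thin line and the range over leaving out each mouse as a thick bar. The interval of *Cd28*, from -0.67 to -0.06, is the only one that does not reach 0, and the bar of *Havcr2* spans from 0.0013 to 0.85.

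*Cd28* was the member with the clearest difference between groups. It had 459, 510 and 447 CPM in CTL mice and 338, 398 and 363 CPM in *Prdm1*-CKO mice. Every *Prdm1*-CKO mouse was below every CTL mouse, which was so for 1 of the 10 members and for 3.86% of all genes tested. The log2 fold change was -0.36 (SE 0.13, 95% interval -0.67 to -0.06), a level of 0.78-fold, with adjusted p = 0.996 by edgeR and an unadjusted p under 0.05. The log2 fold change stayed between -0.42 and -0.30 over leaving out each mouse. The unadjusted p was above 0.05 without CTL mouse 2, without *Prdm1*-CKO mouse 1 or without *Prdm1*-CKO mouse 3, and the adjusted p was then 0.999, 1.00 and 1.00.

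*Cd28* was also set against the RNA of the T cell receptor complex, a scale chosen after seeing the data. Per 1000 counts of *Cd3d*, *Cd3e*, *Cd3g* and *Trac* there were 179, 193 and 146 counts of *Cd28* in CTL mice and 124, 147 and 136 in *Prdm1*-CKO mice. On this scale the groups overlapped, since CTL mouse 3 lay just under *Prdm1*-CKO mouse 2 (two-sided exact permutation p = 0.200). With these genes as the scaling of the whole table, edgeR gave a log2 fold change of -0.35 with an unadjusted p above 0.05 and adjusted p = 0.996.

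**Figure D3:**
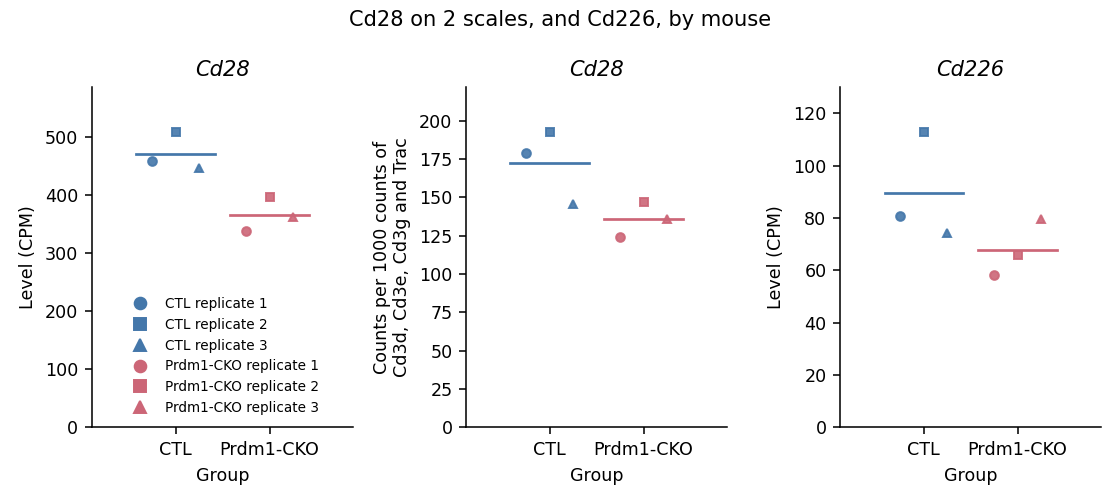
*Cd28* in CPM (left) and per 1000 counts of 4 T cell receptor complex genes (middle), and *Cd226* in CPM (right), with a point per mouse and a line at each group mean. The groups of *Cd28* are apart in CPM, with 398 CPM as the highest *Prdm1*-CKO and 447 CPM as the lowest CTL value, and they touch on the other scale.

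The other costimulatory members did not separate. *Icos* had 232, 246 and 324 CPM in CTL mice and 250, 292 and 263 CPM in *Prdm1*-CKO mice, with a log2 fold change of 0.01 (SE 0.17, 95% interval -0.38 to 0.39). The *Prdm1*-CKO values lay inside the CTL range. *Cd226* had 80.9, 113 and 74.3 CPM in CTL and 58.3, 65.8 and 79.7 CPM in *Prdm1*-CKO mice, with a log2 fold change of -0.39 (SE 0.22, 95% interval -0.89 to 0.10, adjusted p = 0.996 by edgeR). In *Cd226*, 2 *Prdm1*-CKO mice were below all CTL mice and the third was inside their range, and without CTL mouse 2, the highest, the log2 fold change was -0.20.

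*Ctla4* was the steadiest member, with 195, 187 and 200 CPM in CTL and 185, 200 and 182 CPM in *Prdm1*-CKO mice. The highest mouse was 1.10 times the lowest, and the log2 fold change was -0.04 (SE 0.13, 95% interval -0.34 to 0.26). *Ctla4* is abundant in regulatory T cells as well, and *Foxp3*, their defining factor, was at 134 to 182 CPM over the 6 mice. Its part in the level of *Ctla4* was not tested.

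*Pdcd1*, on which the cells were gated, had 263, 188 and 385 CPM in CTL and 355, 263 and 253 CPM in *Prdm1*-CKO mice. The CTL mice held both the lowest and the highest value, and the log2 fold change of 0.06 (SE 0.26) became -0.17 without CTL mouse 2 and 0.37 without CTL mouse 3. *Lag3* had 132, 100 and 155 CPM in CTL and 213, 129 and 101 CPM in *Prdm1*-CKO mice. Its log2 fold change of 0.19 (SE 0.29) rested on *Prdm1*-CKO mouse 1, the highest, without which it was -0.16. The highest mouse exceeded the lowest 2.05 times in *Pdcd1* and 2.12 times in *Lag3*.

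*Tigit* had 174, 165 and 208 CPM in CTL and 199, 168 and 146 CPM in *Prdm1*-CKO mice, with overlapping groups and a log2 fold change of -0.09 (SE 0.17). *Btla* had 193, 183 and 154 CPM in CTL and 214, 182 and 207 CPM in *Prdm1*-CKO mice, with a log2 fold change of 0.18 (SE 0.15). Here 2 *Prdm1*-CKO mice were above all CTL mice, and no member had every *Prdm1*-CKO mouse above every CTL mouse, against 4.56% of all genes tested. *Cd200* had 166, 142 and 158 CPM in CTL and 153, 132 and 134 CPM in *Prdm1*-CKO mice, with a log2 fold change of -0.15 (SE 0.15) and overlapping groups.

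*Havcr2* varied most. It had 41.6, 8.17 and 33.0 CPM in CTL and 34.0, 32.1 and 46.7 CPM in *Prdm1*-CKO mice, so the highest mouse was 5.71 times the lowest. The low value was that of CTL mouse 2, with 69 counts. The log2 fold change of 0.44 (SE 0.50, 95% interval -0.71 to 1.60) became 0.0013 without that mouse. TIM3 is made by macrophages and dendritic cells as well as by T cells, and the gate on TCRβ and CD4 should remove macrophages. The summed macrophage markers were 4932, 2302 and 3513 CPM in CTL and 4760, 3998 and 4854 CPM in *Prdm1*-CKO mice, and CTL mouse 2 was the lowest there too, with *Lyz2* at 1763 CPM beside 2730 to 3476 CPM in the other mice. The part of such cells in the level of *Havcr2* was not tested.

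**Figure D4:**
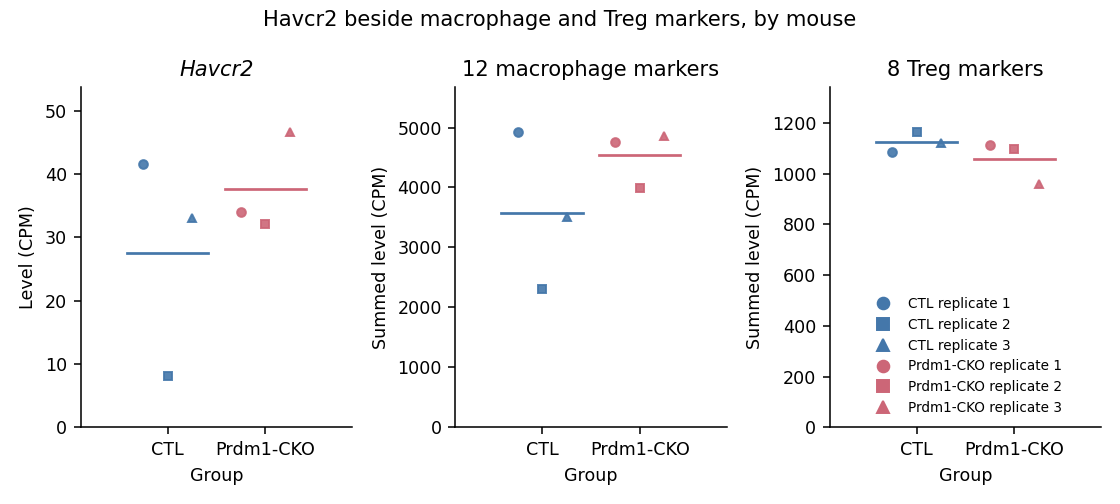
*Havcr2* in CPM (left), the summed CPM of 12 macrophage markers (middle) and of 8 Treg markers (right), with a point per mouse and a line at each group mean. CTL mouse 2, the blue square, is the lowest for *Havcr2* at 8.17 CPM and for the macrophage markers at 2302 CPM, and it is the highest for the Treg markers at 1166 CPM.

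Ratios within a mouse need no scaling between libraries, and 4 pairs that share a ligand or a locus were compared by two-sided exact permutation tests, which cannot go below p = 0.1 for 3 mice against 3. *Cd28* had 2.35, 2.73 and 2.23 counts per count of *Ctla4* in CTL and 1.83, 1.99 and 1.99 in *Prdm1*-CKO mice. These groups did not overlap, and the log2 difference was -0.33 (exact permutation p = 0.1, adjusted p = 0.400 over the 4 pairs). As *Ctla4* varied only 1.10 times between mice, this ratio largely repeats the difference of *Cd28* in CPM and is no separate result. Counts of *Icos* per count of *Cd28* were 0.51, 0.48 and 0.73 in CTL and 0.74, 0.73 and 0.72 in *Prdm1*-CKO mice, a log2 difference of 0.38 (exact permutation p = 0.200, adjusted p = 0.400). The *Prdm1*-CKO mice were close together and met the highest CTL mouse. *Icos* against *Ctla4* gave a log2 difference of 0.06 (exact permutation p = 0.700, adjusted p = 0.700). *Tigit* against its competitor *Cd226* gave 2.15, 1.47 and 2.80 in CTL and 3.40, 2.55 and 1.84 in *Prdm1*-CKO mice, a log2 difference of 0.28 (exact permutation p = 0.5, adjusted p = 0.667). The pairs share genes, so they are not independent of each other.

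**Figure D5:**
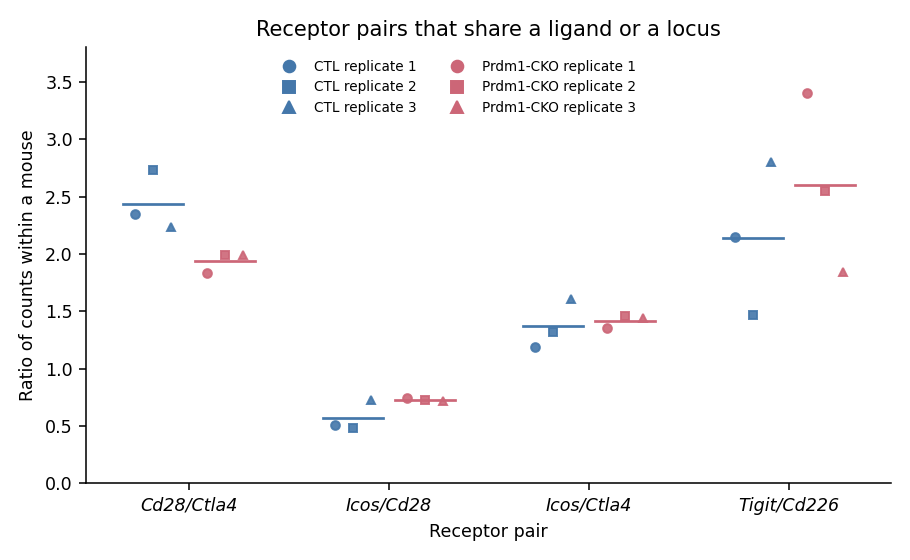
Ratio of the counts of 2 receptors within each mouse, with a point per mouse and a line at each group mean. For *Cd28* over *Ctla4* the *Prdm1*-CKO mice, at 1.83 to 1.99, are all below the CTL mice, at 2.23 to 2.73, and the other 3 ratios overlap.

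Other tools did not call a member either. DESeq2's Wald test called 0.0346% of 26030 genes at an adjusted p under 0.05 and none of the 10 members, whose lowest adjusted p was 1.00. Unadjusted, it had 2.62% of genes under 0.05, and *Cd28* was the only member there. Voom with sample quality weights from limma, added after seeing the data, called 0% of genes, had 3.31% under 0.05 without adjustment, and again only *Cd28* among the members (adjusted p = 0.998).

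Ligands and counter-receptors were measured in the same cells, and 12 of 14 passed the filter. None had p under 0.05 by edgeR, 8 had log2 fold changes above 0 and 4 below, and their median was 0.18. The highest per length were *Lgals9*, which encodes the TIM3 ligand galectin-9, at 288 ± 17.4 CPM in CTL and 263 ± 14.9 CPM in *Prdm1*-CKO mice, *Lgals3* at 115 ± 29.7 and 145 ± 1.61 CPM, and *Cd274*, which encodes the PD1 ligand PD-L1, at 64.5 ± 27.8 and 82.9 ± 9.50 CPM (SD, n = 3). *Lgals3* was the 1 ligand of 12 with all *Prdm1*-CKO mice above all CTL mice, beside 4.56% of all genes. Galectin-3 and PD-L1 are also products of macrophages, which the gate on TCRβ and CD4 should remove but whose markers were detected as given above, and their part was not tested.

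Of 15 other immunoglobulin-family receptors 14 passed the filter, with a median log2 fold change of -0.01. *Cd4*, the coreceptor for MHC class II, was the only gene of the list with p under 0.05. It had 896, 1061 and 1031 CPM in CTL and 823, 774 and 847 CPM in *Prdm1*-CKO mice, with the log2 fold change at -0.29 (SE 0.12, adjusted p = 0.996, edgeR). All *Prdm1*-CKO mice were below all CTL mice in 2 of the 14 genes, *Cd4* and *Slamf6*, beside 3.86% of all genes. *Cd4* kept that order per 1000 counts of the T cell receptor complex genes, at 349, 402 and 337 against 301, 286 and 317. *Cd2*, an adhesion receptor, had 424 ± 41.9 CPM in CTL and 437 ± 19.3 CPM in *Prdm1*-CKO mice. *Cd96*, another receptor for CD155, had 242 ± 33.1 and 184 ± 37.4 CPM (log2 fold change -0.39, adjusted p = 0.996, edgeR).

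Downstream of the receptors, all 27 genes of proximal signalling passed the filter, and none had p under 0.05. Log2 fold changes were below 0 in 22 of them and above 0 in 5, with a median of -0.11 and a range of -0.50 to 0.12. *Lck*, the kinase that phosphorylates the CD28 tail, had 1572 ± 193 CPM in CTL and 1515 ± 128 CPM in *Prdm1*-CKO mice. Over all genes tested, 7116 of 14555 were below 0. All *Prdm1*-CKO mice were below all CTL mice in 3 of the 27 genes, *Lat*, *Lcp2* and *Ptpn22*, beside 3.86% of all genes. The adaptor *Lat* had 653 ± 47.8 and 560 ± 34.7 CPM, and *Ptpn6*, which encodes the ITIM-binding phosphatase SHP-1, had 606 ± 72.1 and 623 ± 65.8 CPM.

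Genes for the transport, shedding or mRNA decay of these receptors (13 of 13 passed the filter) had a median log2 fold change of -0.10, and none had p under 0.05. That median was -0.32 without CTL mouse 3 and -0.03 without CTL mouse 2. In 1 of the 13, *Myh9*, all *Prdm1*-CKO mice were below all CTL mice, beside 3.86% of all genes. The highest per length were *Cmtm6*, which stabilizes PD-L1, at 274 ± 73.1 and 306 ± 46.6 CPM, *Rab11a* at 111 ± 17.6 and 126 ± 8.90 CPM, and the protease *Adam10* at 158 ± 58.6 and 148 ± 54.7 CPM. Transcriptional regulators (17 of 17) had a median of -0.07, and none had p under 0.05. Among them *Tcf7*, the gene of TCF1, had 574 ± 71.9 and 517 ± 32.6 CPM, *Batf* 160 ± 12.3 and 168 ± 21.1 CPM, and *Nr4a1*, which is induced by T cell receptor signalling, 299 ± 102 and 361 ± 46.8 CPM.

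The genes whose pattern over the 6 mice was most like that of a member were found by the root-mean-square (RMS) difference of log2 CPM centred on each gene's mean, among genes that varied at least as much. All points come from the same 6 libraries, so likeness is a description. *Cd28* was nearest to *Kin* (0.063) and *Cbr4* (0.067), *Icos* to the ribosomal protein genes *Rpl6* (0.040) and *Rps3a1* (0.041), families with many near-identical copies whose counts are uncertain, and *Cd226* to *Pikfyve* (0.082) and *Ttc28* (0.089). *Ctla4* was nearest to *Prrc2a* (0.028) and *Lims1* (0.035), *Cd200* to *Igtp* (0.039) and *Clcn4* (0.044), and *Btla* to *Chtop* (0.032) and *Srsf3* (0.051). *Tigit* was nearest to *Wdr4* (0.062) and *Cd160* (0.063), the latter a receptor for HVEM. *Pdcd1* had *Gm10184* (0.092) and *Thumpd2* (0.115), and *Lag3* had *Zfp458* (0.146) and *Ippk* (0.165). *Havcr2* had *Wdfy3* (0.111) and *Fcgr2b* (0.120), the latter an inhibitory Fc receptor of B cells and myeloid cells. Among the members themselves, where no condition on variation was set, *Pdcd1* and *Lag3* were each other's nearest (0.21). So were *Cd28* and *Cd226* (0.18) and *Ctla4* and *Cd200* (0.12). *Ctla4* and *Cd200* varied least of the members, with an SD of log2 CPM of 0.06 and 0.13. Genes this flat differ little by this measure whatever their patterns.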

How the data were processed

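The members and the gene lists were chosen with earlier results of these data known. The authors made Smart-seq2 libraries from sorted Tfh cells, sequenced them as paired reads, aligned them to GRCm38 (STAR 2.4.2a in the submitters' processing notes) and deposited raw counts per gene from featureCounts, unnormalized, 1 library per mouse. Strand, multiply aligned reads and the counting of mates are not given in the sources used here. Symbols, exon lengths and sequences came from GENCODE M21, which held 53274 of the 53379 identifiers. Counts were tested with edgeR 4.0.16 in R 4.3.3 (TMM, filterByExpr, quasi-likelihood F test, no covariate) over 14555 genes, after tests on simulated data, and all tests were two-sided. Log2 CPM used a prior count of 2, and pair ratios added 0.5 counts. Alternatives were DESeq2 1.42.0, other filters, the replicate number as a block, another gene length, and each mouse left out. Voom (limma 3.58.1) and T cell gene scaling were chosen after seeing the data. Named genes were all members, the 3 highest genes per length in each pathway list, pathway list genes at an unadjusted p under 0.05, and the 2 genes most like each member, with marker lists given by summed level. *Lcp2*, *Ptpn22*, *Slamf6* and *Myh9* were singled out for their separate groups after their values were seen. *Cd4* ratios, *Lyz2*, *Foxp3*, *Jchain* and *Ccr7* were also chosen after their values were seen.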

Additional observations from a re-analysis of the deposited data

How the results depend on the processing

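No member was called at an adjusted p under 0.05 by any alternative. Members lower at an unadjusted p under 0.05 went from 1 to 0 without the filter (*Cd28* adjusted p = 0.905, edgeR) and with T cell gene scaling (adjusted p = 0.996), and lay between 0 and 1 over leaving out each mouse. Over all genes, where edgeR called 0 and had 135 higher and 207 lower unadjusted, DESeq2's Wald test called 7 higher and 2 lower, with 264 and 417 unadjusted. Without the filter edgeR called 1 higher, with 426 and 510 unadjusted, and voom had 271 higher unadjusted. Leaving out each mouse gave 58 to 580 higher and 107 to 617 lower unadjusted. Over leaving out each mouse, log2 fold changes ranged from -0.10 to 0.17 for *Icos*, from -0.17 to 0.37 for *Pdcd1*, from -0.16 to 0.41 for *Lag3* and from -0.21 to 0.02 for *Tigit*. They crossed 0 for *Icos* (-0.10 without CTL mouse 1, -0.06 without CTL mouse 2, -0.05 without *Prdm1*-CKO mouse 2), *Pdcd1* (-0.17 without CTL mouse 2, -0.11 without *Prdm1*-CKO mouse 1), *Lag3* (-0.16 without *Prdm1*-CKO mouse 1) and *Tigit* (0.02 without CTL mouse 3, 0.01 without *Prdm1*-CKO mouse 3). The log2 difference of *Icos* against *Ctla4* ranged from -0.04 to 0.18. Lengths of the longest coding transcript changed ranks but kept *Tigit* and *Pdcd1* first and second, at 274 and 427 in CTL mice. With them *Cd28* passed *Icos* in both groups, *Ctla4* in CTL mice (640 and 701) and *Lag3* in *Prdm1*-CKO mice (957 and 1114). *Cd200* passed *Btla* and *Lag3* in CTL mice. The median of the turnover genes moved from -0.10 to -0.32 without CTL mouse 3. The cause of these moves was not tested. Same-numbered mice were different animals. Their deviations correlated at 0.158, 0.028 and 0.016, beside -0.131 to 0.083 between mice of other numbers. With 3 mice in each group, these values cannot decide whether same-numbered mice were handled together. With the replicate number as a block, the log2 fold change of *Cd28* was -0.37 (adjusted p = 0.992, edgeR) and no call on a member changed. Each member had at least 69 counts in every mouse.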
